A study of Homo sapiens with 16 samples.

Results

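The endoplasmic reticulum (ER) chaperones and unfolded protein response genes were followed as 36 members chosen by symbol, among the 62700 rows of the deposited table. Every member was found by its Ensembl identifier, and each had a mean of at least 10 normalized counts, as did 14643 rows in all. The members comprised 12 chaperones and co-chaperones, 5 genes of oxidative folding, 10 genes of ER-associated degradation (ERAD), 5 stress sensors or transcription factors and 4 genes of the translocon. They were measured by RNA-seq in OCI-AML3, an established human acute myeloid leukemia cell line that expresses the retinoic acid receptors RARA and RARG. The Untreated group had 4 libraries, and 3 libraries each came from cells treated for 3 h with 0.1 µM ATRA, with 0.1 µM Am80 (AM80 in the labels), or with either retinoid together with both MB3 (100 µM) and GSK-LSD1 (0.1 µM). ATRA is all-trans retinoic acid, which activates all retinoic acid receptors, and Am80 (tamibarotene) is a synthetic agonist selective for RARA. GSK-LSD1 inhibits the histone demethylase LSD1 and MB3 the histone acetyltransferase GCN5. No group received the inhibitors without a retinoid or one inhibitor alone, so the inhibitor effects below are those of both agents on top of a retinoid. The labels call the libraries of a group repeats and do not say that they came from separate cultures, so the p-values measure the spread between these libraries, which may be technical.

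Proteins that enter the secretory pathway pass through the SEC61 channel into the ER, where the Hsp70-type chaperone BiP (HSPA5), its J-domain partners, the lectin chaperones and the disulfide isomerases fold them. Proteins that fail to fold are drawn back to the cytosol through the SEL1L and SYVN1 ligase complex and degraded. When unfolded proteins accumulate, IRE1 (ERN1) splices the XBP1 mRNA, ATF6 is cleaved to an active factor and PERK slows translation, and together these branches raise the genes for folding and degradation. Gene-level counts measure the amount of an mRNA only, so neither XBP1 splicing nor ATF6 cleavage is measured by these data. Levels of bulk RNA are relative to the other genes of a library, and fewer expressing cells cannot be told apart from less RNA per cell.

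Some of these genes carry a shared promoter element, and the stretches below show it in the letters of the genome. The members were chosen as genes of ER folding and stress, so a high share among them is a description and not a test. The ER stress response element (ERSE) was searched as CCAAT, then any 9 bases, then CCACG, and ERSE-II as ATTGG, then any 1 base, then CCACG, both on either strand. The windows were the RefSeq promoters of GRCh38.p14, from 250 bases before to 50 bases after each start, with 42 windows for 34 of the 36 members. ERSE stood in 10 of the 42 member windows (23.8%) and in 27 of all 35116 windows (0.0769%). Windows of a gene with several starts can overlap, and the element of CANX is a single site counted in each of its overlapping windows. ERSE-II stood in 3 member windows (7.14%) against 19 of all windows (0.0541%). The 8 members with ERSE were CALR, CANX, CRELD2, ERO1B, HSP90B1, HSPA5, PDIA6 and XBP1, and the 3 with ERSE-II were HERPUD1, HYOU1 and SDF2L1. The element is in capitals in each stretch, read 5′ to 3′ on the strand of the gene and shown only where it lay outside annotated exons.
HSPA5 (chr9:125241379-125241421, minus strand): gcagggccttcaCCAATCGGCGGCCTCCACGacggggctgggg
XBP1 (chr22:28800598-28800633, minus strand): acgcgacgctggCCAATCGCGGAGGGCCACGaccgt
PDIA6 (chr2:10812845-10812883, minus strand): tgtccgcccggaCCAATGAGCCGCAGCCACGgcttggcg
CALR (chr19:12938372-12938414, plus strand): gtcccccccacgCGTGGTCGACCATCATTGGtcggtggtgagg
CRELD2 (chr22:49918542-49918584, plus strand): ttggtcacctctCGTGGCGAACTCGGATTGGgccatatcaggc
ERO1B (chr1:236282171-236282208, minus strand): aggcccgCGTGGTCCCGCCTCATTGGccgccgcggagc
HERPUD1 (chr16:56932013-56932047, plus strand): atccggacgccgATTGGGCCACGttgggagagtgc
SDF2L1 (chr22:21642102-21642136, plus strand): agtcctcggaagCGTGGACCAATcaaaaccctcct
HYOU1 (chr11:119057262-119057402, minus strand): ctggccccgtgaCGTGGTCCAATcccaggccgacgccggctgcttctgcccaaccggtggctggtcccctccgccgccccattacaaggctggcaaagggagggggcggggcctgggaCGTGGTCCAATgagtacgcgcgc

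HSPA5, XBP1 and PDIA6 held ERSE in the direction of transcription, whereas CALR, CRELD2 and ERO1B held it in reverse. HYOU1 held 2 copies of ERSE-II, both in reverse. A match is a description of the letters in a window and not a measured binding site. Members whose windows held neither element included DNAJC3, one of the members that changed most, and the 200 bases before its start are shown for contrast.
DNAJC3 (chr13:95676939-95677138, plus strand): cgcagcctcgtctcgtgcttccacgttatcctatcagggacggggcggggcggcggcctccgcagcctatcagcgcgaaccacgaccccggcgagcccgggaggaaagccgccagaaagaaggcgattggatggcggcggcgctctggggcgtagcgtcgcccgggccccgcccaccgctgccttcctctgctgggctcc

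The libraries held between 11963898 and 33789718 reads counted on genes. The myeloid genes SPI1, CD33, CEBPA, LYZ and CSF3R were expressed in every library, and MPO was low (23.9 to 53.2 normalized counts). CD3D, CD2 and MS4A1 of T and B cells were at 0 in all libraries, but not every gene of other cell types was. Summed over 3 or 4 genes per list, T cell genes reached at most 2.22, erythroid 2.79, epithelial 13.7 and plasma cell genes 23.1. The B cell list held 19.9 to 53.7 and the fibroblast list 53.3 to 86.8 normalized counts per library. The balance of GC-rich against GC-poor genes differed between groups. On the log2 scale, genes with at least 56.67% GC stood above genes with at most 42.21% GC by 0.153 to 0.473 in untreated libraries (highest in replicate 4) and by 0.103 to 0.332 with ATRA. The shift was 0.151 and 0.281 in 2 Am80 libraries but -0.318 in Am80 replicate 2, between -0.484 and -0.397 in the ATRA combination, and between -0.205 and -0.0632 in the Am80 combination. Untreated replicate 4 and Am80 replicate 2 thus stood apart from their groups in this measure. Values with the GC trend removed, and without these 2 libraries, are given for the calls they end.

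In untreated cells the members covered a wide range of abundance. Levels between genes are given as normalized counts per kb of the longest annotated coding transcript. P4HB, the main protein disulfide isomerase, had the highest mean level of the 36 members at 10252 per kb. CALR (10087 per kb), HSP90B1 (8556 per kb), HSPA5 (5906 per kb) and CANX (5119 per kb) followed, all general chaperones of the ER lumen or membrane. The sensor ERN1 (50.6 per kb) and the oxidase ERO1B (45.9 per kb) were near the bottom, and DERL3, a derlin of the ERAD channel, was last at 9.97 per kb, with 19.9 to 41.8 normalized counts per untreated library.

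**Figure D1:**
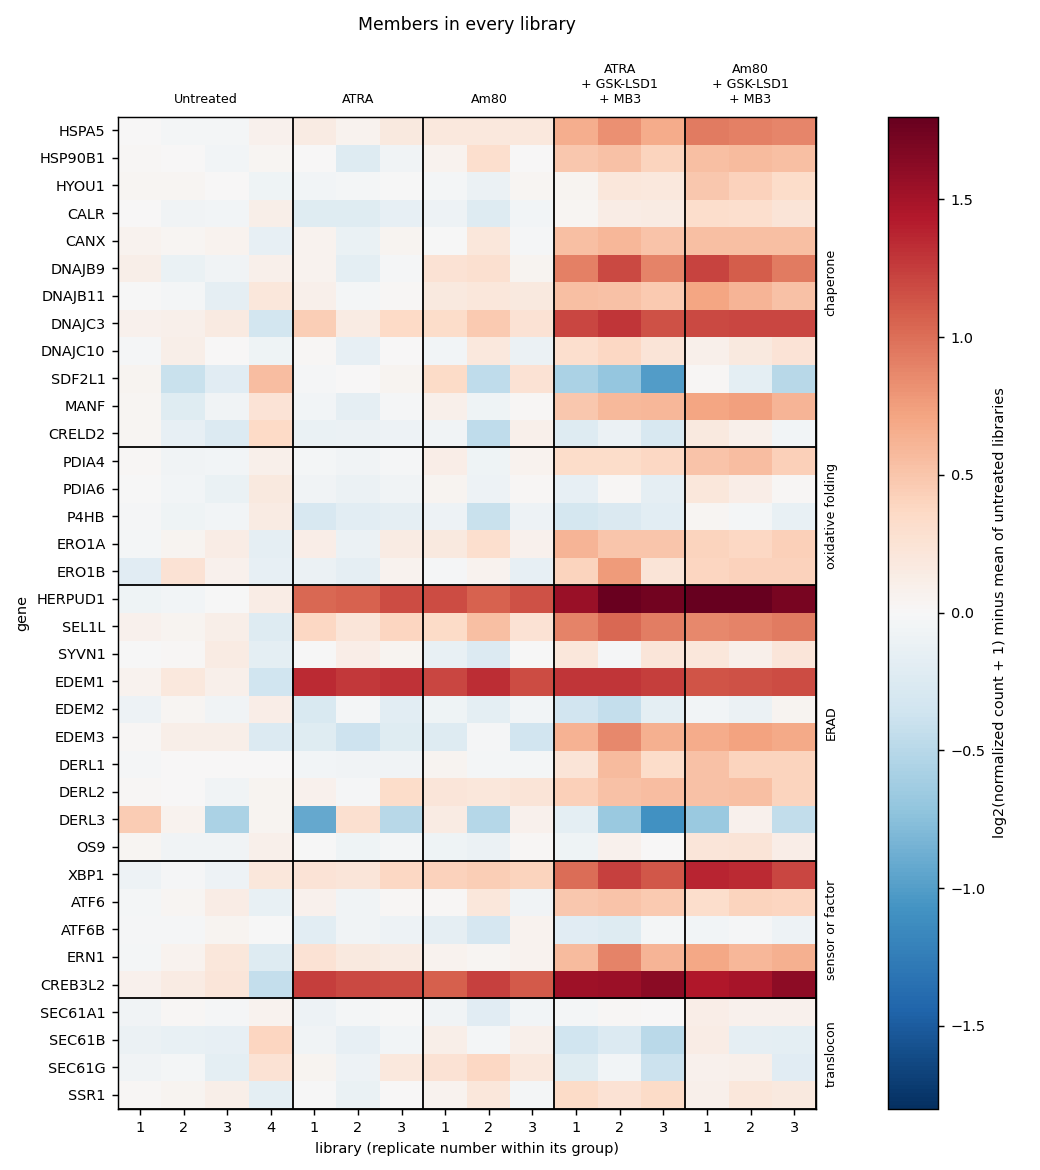
Each row is a member and each column a library, and color gives log2(normalized count + 1) minus the mean of the 4 untreated libraries. HERPUD1, EDEM1 and CREB3L2 stand out in all 12 treated libraries, whereas HSPA5, DNAJB9, DNAJC3, XBP1 and EDEM3 are darkest in the 6 combination libraries.

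Whether a retinoid alone altered the module was asked first. HERPUD1, EDEM1 and CREB3L2 rose over 2-fold within 3 h of either retinoid, while no chaperone, disulfide isomerase or translocon gene was called. HERPUD1, an ER membrane protein that scaffolds the ERAD complex, had 2175, 2222, 2277 and 2509 normalized counts in the untreated libraries. It had 4686, 4785 and 5153 with ATRA, and 5182, 4801 and 5053 with Am80. No treated library overlapped the untreated ones. The log2 fold change was 1.09 ± 0.07 (SE) with ATRA (adjusted p = 1.22e-10, limma) and 1.13 ± 0.07 with Am80 (adjusted p = 6.81e-11, limma). EDEM1, which extracts misfolded glycoproteins from the folding cycle, rose from 4689.8, 5083, 4779 and 3497 normalized counts to 11304, 10778 and 11003 with ATRA. With Am80 it had 10243, 11252 and 10083. Untreated replicate 4 was the lowest of the untreated libraries for EDEM1, and every treated library lay above every untreated one. The EDEM1 changes were 1.30 ± 0.09 (adjusted p = 2.56e-10, limma) and 1.23 ± 0.09 (adjusted p = 6.07e-10, limma) on the log2 scale. CREB3L2 encodes an ER-anchored transcription factor that is released by cleavage and acts on secretory pathway genes. It went from 3718, 3897, 4092 and 2622 normalized counts to 8404, 8073 and 8003 with ATRA, and to 7462, 8269 and 7593 with Am80. Its log2 fold changes were 1.21 ± 0.10 with ATRA (adjusted p = 1.02e-08, limma) and 1.14 ± 0.10 with Am80 (adjusted p = 2.53e-08, limma).

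A gene was called where the adjusted p was under 0.05 and the change exceeded 1.5-fold. By that rule 3 of 36 members were higher with ATRA, where 6.52% of all 14643 genes were, and 3 of 36 with Am80, where 6.41% of all genes were. These shares of the members are near the background. No member was called lower, against 2.94% of all genes with ATRA and 3.76% with Am80. Without the fold limit, 6 members passed the test as higher and 2 as lower with ATRA (12.5% and 12.1% of all genes). The other 3 that rose with ATRA were DNAJC3, SEL1L and XBP1, with log2 fold changes of 0.32, 0.32 and 0.28, and the 2 that fell were CALR (-0.20) and EDEM3 (-0.27). With Am80, 8 members passed as higher and none as lower (15.4% and 13.4% of all genes), and 13 had an unadjusted p under 0.05 (39.0% of all genes). HSPA5 was 0.13 with ATRA (adjusted p = 0.15, limma) and 0.19 with Am80 (adjusted p = 0.025, limma). The median log2 fold change of the 36 members was -0.04 with ATRA and 0.05 with Am80, beside -0.02 and -0.01 over all genes. For 32 of the 36 members the 95% interval lay inside the 1.5-fold limits with either retinoid (64.3% of all genes with ATRA and 62.1% with Am80). Both retinoid comparisons share the untreated libraries, so their values stand side by side and are not independent.

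The effect of adding both inhibitors to a retinoid was examined next. Here 23 of the 36 members passed the test as higher on top of ATRA, where 24.9% of all genes did, and 23 on top of Am80, where 19.9% of all genes did. The J-domain co-chaperones DNAJB9 and DNAJC3, the transcription factor XBP1 and the mannosidase EDEM3 had the 4 largest rises with either retinoid, with log2 fold changes from 0.84 to 1.04, and BiP rose by 0.59 and 0.71. With the fold limit, 8 members were called higher on top of ATRA (8.15% of all genes) and 8 on top of Am80 (6.81% of all genes). Of these, 7 members were called in both (87.5% of each list), namely HSPA5, DNAJB9, DNAJC3, MANF, HERPUD1, EDEM3 and XBP1. SEL1L was the eighth with ATRA and ERN1 the eighth with Am80. How many of all genes were called in both was not counted, so no background stands beside the 7. The 2 comparisons share no library, but they share 1 estimate of the spread and the same inhibitors. SDF2L1 was the one member called lower, with ATRA only (11.4% of all genes were lower with ATRA and 8.90% with Am80). The median log2 fold change of the members was 0.36 with ATRA and 0.35 with Am80, beside -0.02 and -0.01 over all genes. Over 28 alternative fits the members' median stayed between 0.22 and 0.39 on top of ATRA and between 0.22 and 0.38 on top of Am80.

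**Figure D2:**
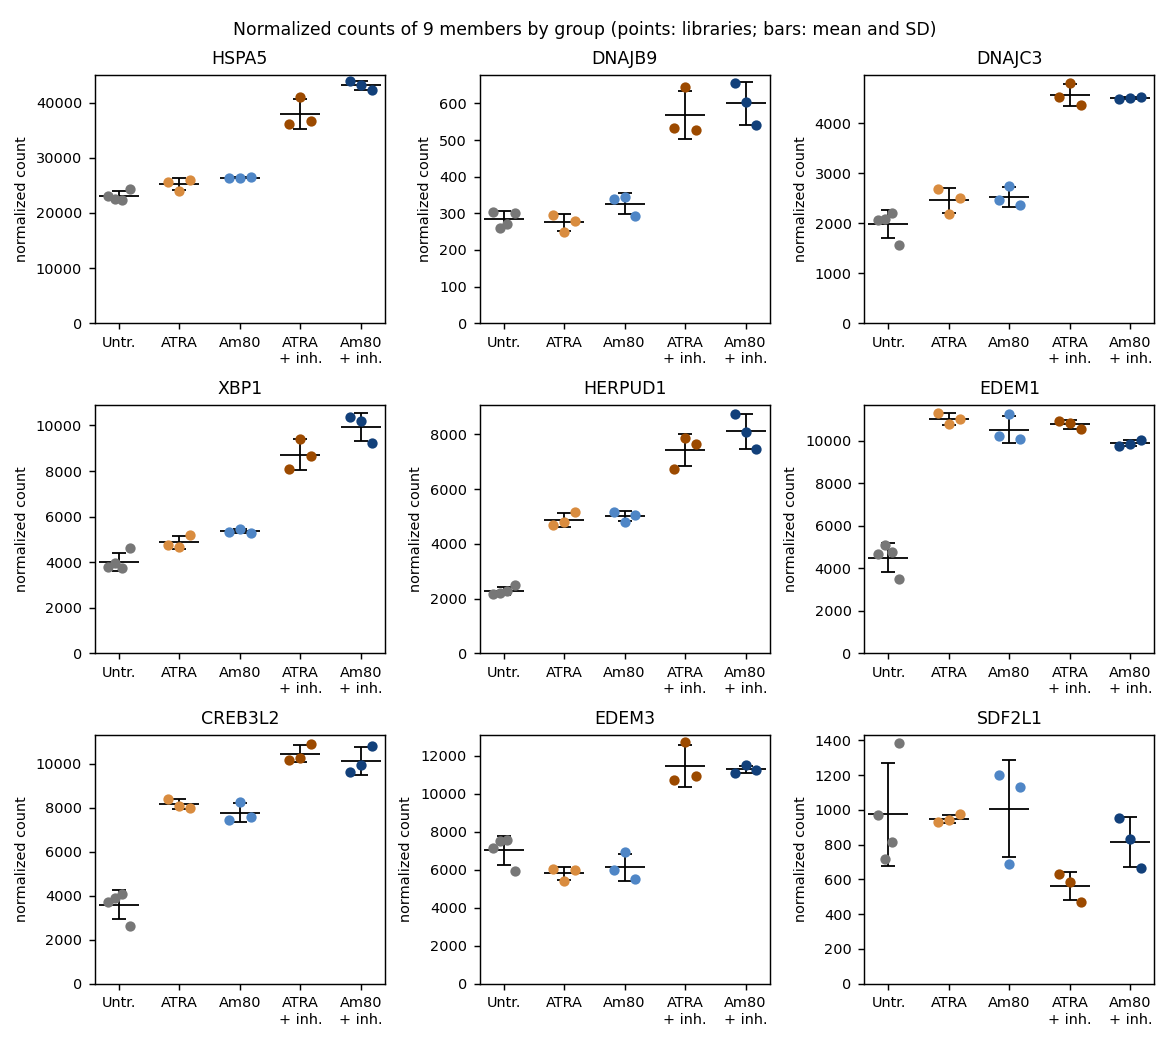
Normalized counts of 9 members, with a point for each library and bars for the group mean and SD. HSPA5, DNAJB9, DNAJC3, XBP1 and EDEM3 step up with the inhibitors, EDEM1 is already at its height with a retinoid alone, HERPUD1 and CREB3L2 rise in both steps, and SDF2L1 is lowest in the ATRA combination.

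Among the 12 chaperones, 10 passed the test as higher on top of ATRA and 9 on top of Am80 (24.9% and 19.9% of all genes). HSPA5 had 25649, 24026 and 26019 normalized counts with ATRA and 36158, 40999.5 and 36653 in the ATRA combination. With Am80 it had 26347, 26341 and 26442, and in the Am80 combination 43943, 43274 and 42314. Every combination library lay above every retinoid library. The log2 fold changes were 0.59 ± 0.07 (adjusted p = 7.53e-07, limma) and 0.71 ± 0.07 (adjusted p = 6.38e-08, limma). DNAJB9, a co-chaperone that hands misfolded proteins to ERAD, had 296, 250.2 and 279 normalized counts with ATRA and 534, 643 and 529 in the combination. It had 339, 346 and 293 with Am80 and 657, 603 and 541 in that combination. This was 2.06-fold (log2 1.04 ± 0.11, adjusted p = 1.60e-07, limma) and 1.84-fold (log2 0.88 ± 0.11, adjusted p = 1.53e-06, limma). DNAJB9 overlaps exons of THAP5, a gene on the opposite strand with a mean of 1107 normalized counts, above every DNAJB9 value. The strand setting of the counting is not given in the sources used here. It is thus not known whether reads of both genes were kept apart. The same holds for DNAJB11 with TBCCD1, PDIA6 with ATP6V1C2, SYVN1 with MRPL49, DERL3 with SMARCB1 and SEC61A1 with RUVBL1. DNAJC3, a J-domain co-chaperone that also restrains PERK, rose from 2678, 2188 and 2514 to 4519, 4812 and 4370.3 normalized counts with ATRA. With Am80 it rose from 2474, 2737 and 2359 to 4486, 4509.6 and 4528. Its changes were 1.86-fold (adjusted p = 5.96e-07, limma) and 1.79-fold (adjusted p = 1.55e-06, limma). MANF, a small stress-induced protein of the ER lumen, was 1.54-fold and 1.59-fold higher.

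HSP90B1, the Hsp90 of the ER, passed the test but not the fold limit. It had 24575, 20894 and 23482 normalized counts with ATRA against 34297, 35250.2 and 32120.0 in the combination. It had 25461, 30161 and 24481 with Am80 against 35429, 36439.9 and 35455. The groups did not overlap, and the changes were 1.48-fold (log2 0.56 ± 0.08, adjusted p = 1.0e-05, limma) and 1.35-fold (log2 0.43 ± 0.08, adjusted p = 0.00024, limma). CANX, the membrane-bound lectin chaperone, was 0.55 and 0.48 higher on the log2 scale, and its soluble relative CALR 0.30 and 0.41. DNAJB11, a soluble J-domain partner of BiP, was 0.49 and 0.43 higher, and HYOU1, the exchange factor of BiP, was 0.18 and 0.45 higher. DNAJC10, a reductase with a J domain, was 0.34 higher with ATRA (adjusted p = 0.0014, limma), and had 0.16 with Am80 (adjusted p = 0.12, limma). CRELD2, a disulfide isomerase of the lumen, did not pass with either retinoid (-0.10 and 0.21).

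SDF2L1, a subunit of the BiP complex, was the one chaperone called lower. It had 929, 945 and 975 normalized counts with ATRA and 634, 583 and 471 in the ATRA combination, with no overlap. The log2 fold change was -0.77 ± 0.20 (adjusted p = 0.0038, limma). In the Am80 groups the values overlapped, at 1201, 689.7 and 1131 against 954, 833 and 666 (log2 -0.27, adjusted p = 0.30, limma), and the difference between the 2 effects gave an adjusted p of 0.41 (limma). SDF2L1 had the highest GC content of the 36 members at 65.5%. With the GC trend removed from each library, its change on top of ATRA was -0.29 (adjusted p = 0.0975, limma). The part of GC content in this change was not tested further.

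None of the 5 oxidative folding genes was called in the main fit. Their median log2 fold change was 0.39 on top of ATRA and 0.21 on top of Am80. For all 36 members it was 0.36 and 0.35. The disulfide isomerase PDIA4 and the oxidase ERO1B passed the test in both comparisons, with log2 fold changes of 0.39 and 0.54 on top of ATRA and 0.46 and 0.45 on top of Am80. ERO1A, which reoxidizes the disulfide isomerases, rose by 0.48 with ATRA (adjusted p = 9.3e-05, limma) and had 0.21 with Am80 (adjusted p = 0.055, limma). The isomerases PDIA6 (-0.01 and 0.12) and P4HB (-0.05 and 0.14) did not pass. At the unadjusted level, 3 of the 5 had a p under 0.05 in each comparison, as did 55.1% and 47.5% of all genes. For P4HB, the most abundant member, the 3 ATRA libraries had 21825, 23347 and 23908 normalized counts and the combination 21434, 22219 and 23244, so the groups overlapped.

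Of the 10 ERAD genes, 5 passed the test as higher on top of ATRA and 7 on top of Am80 (24.9% and 19.9% of all genes). EDEM3 showed the largest change among them. It had 6019, 5403 and 6008 normalized counts with ATRA and 10743, 12724 and 10933 in the combination, and 5979, 6904 and 5502 with Am80 against 11094, 11495 and 11230.3. The rise was 1.97-fold (log2 0.98 ± 0.09, adjusted p = 9.18e-08, limma) and 1.85-fold (log2 0.89 ± 0.09, adjusted p = 3.56e-07, limma). All combination libraries of EDEM3 lay above all other libraries, the untreated ones included. HERPUD1, already raised by the retinoids, had 6753, 7876 and 7659.8 normalized counts in the ATRA combination and 8751, 8098 and 7471 in the Am80 combination. The further rise was 1.52-fold (log2 0.61 ± 0.08, adjusted p = 2.41e-06, limma) and 1.61-fold (log2 0.69 ± 0.08, adjusted p = 5.26e-07, limma). EDEM1 did not pass on top of either retinoid. Its log2 fold change was -0.03 with ATRA (95% interval -0.23 to 0.17, adjusted p = 0.80, limma) and -0.09 with Am80 (95% interval -0.29 to 0.11, adjusted p = 0.49, limma). It had 10949, 10855 and 10541 normalized counts in the ATRA combination and 9769, 9854 and 10038 in the Am80 combination. SEL1L, the adaptor of the ERAD ligase, rose by 0.62 and 0.51 on the log2 scale, while the ligase SYVN1 had 0.08 (adjusted p = 0.48, limma) and 0.30 (adjusted p = 0.010, limma). The derlins, which form the exit channel, rose by 0.44 and 0.45 (DERL1) and by 0.37 and 0.27 (DERL2). DERL3 (-0.27 and -0.25) and EDEM2 (-0.15 and 0.06), a mannosidase-like relative of EDEM1, did not pass, and the glycan-binding lectin OS9 passed with Am80 only (0.24, against 0.04 with ATRA).

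Of the sensors and factors, XBP1 changed most on adding the inhibitors. Its mRNA had 3779, 3959, 3745 and 4606 normalized counts in untreated cells, 4767, 4650.4 and 5199 with ATRA and 8075, 9402 and 8678 in the ATRA combination. It had 5345, 5453 and 5292 with Am80 and 10376, 10209.5 and 9224 in the Am80 combination. The 3 levels of untreated, retinoid and combination libraries did not overlap. The inhibitors added 1.79-fold (log2 0.84 ± 0.08, adjusted p = 7.88e-08, limma) and 1.85-fold (log2 0.89 ± 0.08, adjusted p = 3.36e-08, limma). ERN1, the kinase and nuclease that splices XBP1, had 475, 445 and 438 normalized counts with ATRA and 588, 736 and 607 in the combination, and 412, 405 and 412 with Am80 against 639, 601 and 618. Its changes were 1.41-fold (log2 0.50 ± 0.10, adjusted p = 0.00037, limma) and 1.51-fold (log2 0.59 ± 0.10, adjusted p = 8.41e-05, limma). ATF6 had 1760.4, 1599 and 1708 normalized counts with ATRA and 2338, 2395 and 2314 in the combination, and 1699.8, 1923 and 1603 with Am80 against 2097, 2212 and 2189. It rose by 0.48 ± 0.08 (adjusted p = 3.6e-05, limma) and 0.32 ± 0.08 (adjusted p = 0.0022, limma), below the fold limit. Its paralog ATF6B did not pass (-0.04 and 0.08). CREB3L2 rose further by 0.36 and 0.38 (adjusted p = 0.012 and 0.0099, limma).

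The translocon genes did not move together. SSR1, a subunit of the complex beside the channel, passed on top of ATRA (0.35) and had 0.08 with Am80 (adjusted p = 0.44, limma), while SEC61A1, the pore of the channel, passed on top of Am80 (0.20) and had 0.04 with ATRA (adjusted p = 0.59, limma). The small subunits SEC61B and SEC61G had values from -0.29 to -0.13 that did not pass. None of the 4 was called. At the unadjusted level 3 had a p under 0.05 with ATRA and 2 with Am80 (55.1% and 47.5% of all genes). On the recovered reads, edgeR and DESeq2 called no member that limma did not, in any comparison. ERN1 on top of Am80 was not called by edgeR (0.57), and HSPA5 on top of ATRA not by DESeq2 (0.58).

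**Figure D3:**
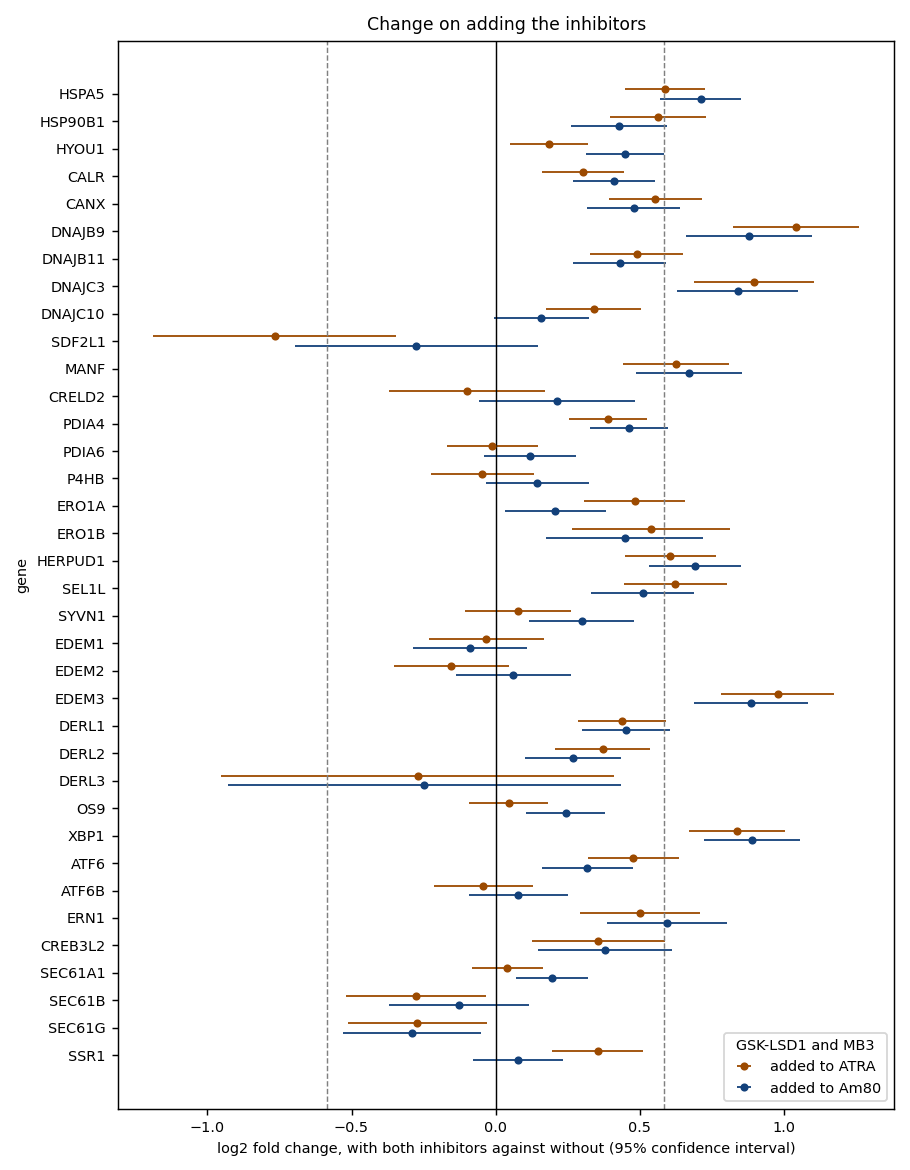
Log2 fold change with against without GSK-LSD1 and MB3 for each member, on top of ATRA and of Am80, with 95% confidence intervals from limma and dashed lines at 1.5-fold. DNAJB9, DNAJC3, XBP1 and EDEM3 lie beyond the line with both retinoids, EDEM1 lies close to 0, and SDF2L1 is the lowest on top of ATRA.

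Several calls lay near the fold limit, and leaving out a single library ended them, with an adjusted p of at most 0.00076 in each case. On top of ATRA, HSPA5 had 0.55 without ATRA replicate 2 and 0.53 without replicate 2 of the combination, which is under 1.5-fold. MANF had 0.58 without ATRA replicate 2, and SEL1L had 0.57 without ATRA replicate 2 and 0.58 without replicate 2 of the combination. HERPUD1 had 0.58 without ATRA replicate 1, 0.56 without replicate 2 and 0.58 without replicate 3 of the combination. On top of Am80, ERN1 had 0.57 without replicate 1 of the combination. Leaving out a library also added calls. On top of ATRA these were HSP90B1 and CANX without ATRA replicate 1 and ERO1B without ATRA replicate 3. ERO1B and HSP90B1 were also added there without replicate 3 of the combination. On top of Am80, SEL1L was added without Am80 replicate 2. The calls of DNAJB9, DNAJC3, EDEM3 and XBP1 were kept in all 28 alternative fits of both comparisons. None of these fits varied the strand setting of the counting, which bears on DNAJB9.

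The GC shift given above was lower in the combination libraries than in the libraries of the same retinoid alone, except for Am80 replicate 2. Whether the inhibitors caused this difference was not tested. The members called higher had a lower median GC content than the rest. On top of ATRA, the 8 had a median transcript GC content of 43.2% against 48.8% for the other 28, and on top of Am80 47.0% against 48.1%. With the GC trend removed, 24 of the 36 members passed the test as higher with each retinoid, but not all of them were those of the uncorrected fit. On top of ATRA, 19 of the 23 still passed, and DNAJC10 (-0.00, adjusted p = 0.96), ERO1B (0.19, adjusted p = 0.20), DERL2 (0.07, adjusted p = 0.55) and SSR1 (0.08, adjusted p = 0.23, limma) did not. P4HB, SYVN1, OS9, ATF6B and SEC61A1 passed in that fit only. On top of Am80, 22 of the 23 still passed, DERL2 did not (0.15, adjusted p = 0.14, limma), and CRELD2 and P4HB were added. DNAJB9, DNAJC3, MANF, EDEM3 and XBP1 kept the call on top of ATRA, where HSPA5 had 0.48, HERPUD1 0.56 and SEL1L 0.32, all under the fold limit (5.61% of all genes were then called higher). On top of Am80, all 8 remained called (6.53% of all genes). Beyond this, the part of the GC shift in the members' change was not tested.

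Scaling lowered the counts as well. With quantile normalization, 5 members were called higher on top of ATRA (8.80% of all genes) and 5 on top of Am80 (7.42%). The 5 on top of ATRA held ERO1B, which was not called in the main fit. Scaling to total reads left 4 (4.62%) and 5 (4.60%). MANF and HERPUD1 fell under the fold limit under both scalings with either retinoid, with log2 fold changes between 0.46 and 0.57. HSPA5 had 0.49 with quantile normalization and 0.44 with total reads on top of ATRA, both under the limit, and 0.55 with quantile normalization on top of Am80. SEL1L had 0.46 and 0.48 on top of ATRA, and ERN1 had 0.47 with total reads on top of Am80, all likewise not called.

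**Figure D4:**
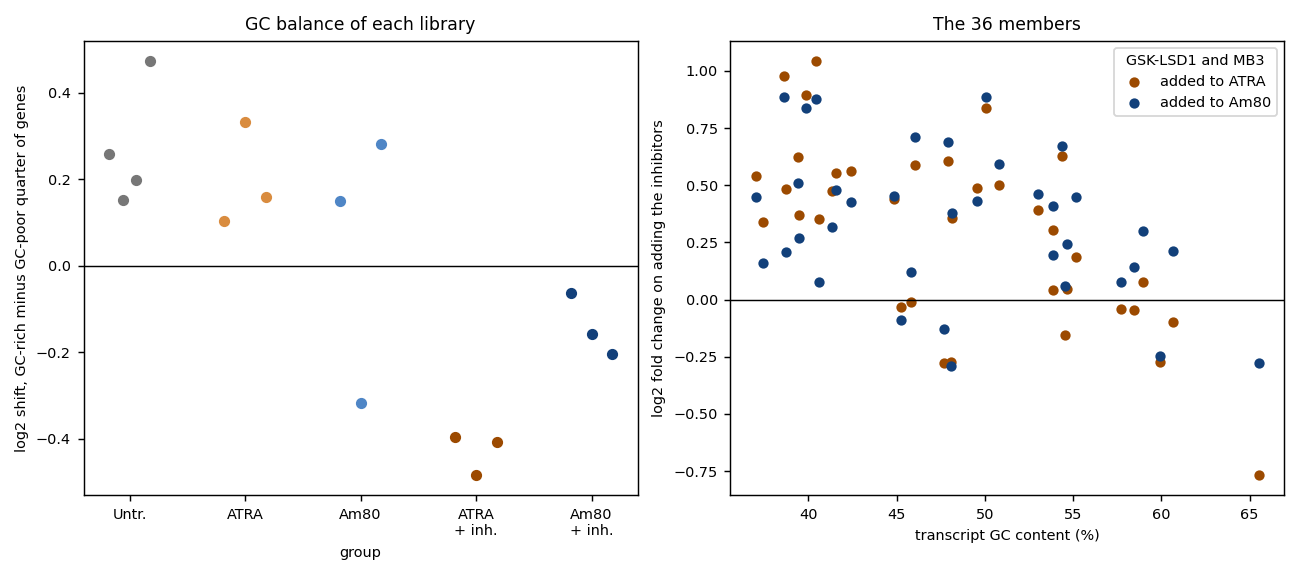
Left, log2 shift of GC-rich against GC-poor genes in each library by group. Right, log2 fold change of each member on adding the inhibitors against the GC content of its transcript, for both retinoids. The ATRA combination libraries have the lowest shifts, from -0.484 to -0.397, and SDF2L1 is the point at 65.5% GC.

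The calls were also split by promoter element. On top of ATRA, 3 of the 11 with an element (HSPA5, HERPUD1 and XBP1) were called higher against 5 of the 23 with a promoter but no element. The same counts, 3 of 11 and 5 of 23, were found on top of Am80. The median log2 fold change was 0.54 with and 0.36 without an element on top of ATRA, and 0.45 and 0.27 on top of Am80. Against untreated cells this difference was not seen. The medians were 0.47 with and 0.49 without an element in the ATRA combination, and 0.41 and 0.40 in the Am80 combination. They were -0.035 and -0.037 with ATRA alone, and 0.053 and 0.051 with Am80 alone. Within the 11, values on top of ATRA ranged from -0.77 for SDF2L1 to 0.84 for XBP1, although both windows held an element.

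Against untreated cells, the combinations joined both steps. With ATRA and both inhibitors, 10 members were called higher (14.2% of all genes) and 1 lower (14.8%), and with Am80 and both inhibitors 12 were higher (12.9%) and none lower (13.1%). Without the fold limit, 23 members passed as higher and 4 as lower in the ATRA combination (30.2% and 30.0% of all genes), and 23 and 0 in the Am80 combination (28.0% and 26.6%), where 25 had an unadjusted p under 0.05 (59.2% of all genes). HSPA5, DNAJB9, DNAJC3, HERPUD1, SEL1L, EDEM1, EDEM3, XBP1, ERN1 and CREB3L2 were called higher with either combination, and DNAJB11 and MANF with the Am80 combination. HERPUD1 rose most, 3.23-fold (log2 1.69 ± 0.07, adjusted p = 5.67e-14, limma) and 3.53-fold (log2 1.82 ± 0.07, adjusted p = 1.43e-14, limma). CREB3L2 reached 10173, 10278 and 10892 normalized counts in the ATRA combination and 9609.6, 9921 and 10814 in the Am80 combination, 2.96-fold and 2.86-fold above untreated cells. XBP1 was 2.17-fold and 2.48-fold higher, DNAJC3 2.32-fold and 2.29-fold, and EDEM1 2.41-fold and 2.21-fold. The abundant chaperone HSPA5 was 1.64-fold and 1.87-fold higher, while HSP90B1 (log2 0.47 and 0.55) and ATF6 (log2 0.49 and 0.37) passed the test under the limit for a call. In the ATRA combination SDF2L1 was called lower (log2 -0.76 ± 0.19, adjusted p = 0.0018, limma), and P4HB, EDEM2 and SEC61B passed the test as lower without reaching 1.5-fold. With the GC trend removed, the SDF2L1 change was -0.24 (adjusted p = 0.12, limma). The SDF2L1 value was -0.57 without Untreated replicate 4, its highest untreated library at 1386 normalized counts, and thus below the limit. EDEM3 was not called in either combination with the GC trend removed (0.40 and 0.50), with quantile normalization (0.56 and 0.46) or with scaling to total reads (0.56 and 0.50). Scaling to total reads also ended the calls of ERN1 in both combinations (0.54 and 0.46), of HSPA5 in the ATRA combination (0.57), and of MANF (0.50) and DNAJB11 (0.43) in the Am80 combination, and quantile normalization those of MANF (0.49) and DNAJB11 (0.45) in the Am80 combination. Without Untreated replicate 4 ERN1 in the Am80 combination had 0.57, and DNAJB11 in the Am80 combination had 0.56 without Untreated replicate 3 and 0.57 without replicate 1 of the combination, all just under the limit.

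ATRA and Am80 were compared directly at the same dose and time, without and with the inhibitors, in 2 pairs of groups and 1 test of the difference between inhibitor effects. No member was called in any of the 3 comparisons by limma, edgeR or DESeq2. Of all genes, limma called 0.0273% higher and 0.0205% lower with Am80 than with ATRA alone, and 0% in the other 2. In the first of these comparisons edgeR called 11 genes higher and 5 lower and DESeq2 13 and 4. DESeq2 called 14 genes higher and 2 lower between the combinations and 5 in the test of the difference, and edgeR none in either. Without the fold limit, 0.184% of all genes passed as higher and 0.0546% as lower with Am80 alone. With the retinoids alone, 3 members had an unadjusted p under 0.05 (13.9% of all genes). HSP90B1 was 0.21 higher with Am80 (95% interval 0.05 to 0.38, adjusted p = 0.23, limma), with Am80 replicate 2 the highest at 30161 normalized counts. DNAJB9 was 0.24 higher (adjusted p = 0.30) and SYVN1 had a log2 difference of -0.18 (adjusted p = 0.36, limma). For 35 of the 36 members the 95% interval of the difference between the retinoids lay inside the 1.5-fold limits, DERL3 being the exception, with its upper bound at 0.96 (73.5% of all genes lay inside).

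In the combinations, 13 members had an unadjusted p under 0.05 (18.1% of all genes) and none passed the adjusted test. HYOU1 was the first, with 5372, 5981 and 5876 normalized counts in the ATRA combination and 7243, 6875 and 6503 in the Am80 combination. Those groups did not overlap, and HYOU1 was 1.20-fold higher with Am80 (log2 0.26, 95% interval 0.13 to 0.39, adjusted p = 0.12, limma). EDEM2 had 0.28 (adjusted p = 0.17) and HSPA5 0.19 (adjusted p = 0.18, limma). Of the 36 members, 34 had an interval inside the 1.5-fold limits (70.6% of all genes), the exceptions being SDF2L1 and DERL3. This result depended on libraries outside the comparison, since all groups share 1 estimate of the spread. Without Untreated replicate 4 and Am80 replicate 2, 12 members passed the test as higher with Am80 and both inhibitors (10.7% of all genes) and 1, SSR1, as lower (5.04%), and none reached 1.5-fold. SDF2L1 was first among them (log2 0.53 ± 0.10, adjusted p = 0.0012, limma), followed by HYOU1 (0.26 ± 0.05, adjusted p = 0.0014). The 12 also held CRELD2, SEC61B, P4HB, PDIA6, CALR, OS9, HSPA5, XBP1, EDEM2 and PDIA4. Other fits passed fewer, all as higher, with 9 members where the fit held only these groups (9.43% of all genes higher and 4.06% lower), 3 with the replicate block (3.49% and 1.22%) and 1 with DESeq2 (0.526% and 0.143%). The GC shift of the ATRA combination libraries lay below that of the Am80 combination libraries, and its part in these differences was not tested. No member passed in the fit with the GC trend removed, but that fit kept Untreated replicate 4 and Am80 replicate 2. With these libraries kept, no member passed before the trend was removed either, so that fit cannot show the part of GC content. The members' median log2 difference was 0.107 with the trend removed and 0.098 in the main fit. The difference was above 0 in 27 and 23 of the 36 members. The difference between the inhibitor effects on top of each retinoid passed the test for no member. HYOU1 (difference 0.26 ± 0.09, adjusted p = 0.23), SSR1 (-0.28 ± 0.11, adjusted p = 0.25) and ERO1A (-0.27 ± 0.12, adjusted p = 0.29, limma) had the smallest p-values of the 4 under 0.05 before adjustment (15.1% of all genes), and 33 members had an interval inside the limits (54.1% of all genes).

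Other genes of the secretory pathway were taken from lists outside the 36 members. As above, 8.15% of all genes were called higher and 11.4% lower on top of ATRA, 6.81% and 8.90% on top of Am80, and 24.9% and 19.9% passed the test as higher. The list named PERK branch had the highest median of the 7 further lists on top of Am80. The name is that of the list, and the activity of PERK was not measured. Of its 12 genes, 3 were called higher on top of ATRA and 7 on top of Am80, none lower, with median log2 fold changes of 0.29 and 0.77. DDIT3, PPP1R15A and PPP1R15B were called with both, and ASNS, CHAC1, SESN2 and TRIB3 with Am80. The difference between the retinoids gave an adjusted p of 0.23 for PPP1R15A and 0.41 for DDIT3 (limma). PPP1R15A, which restores translation by dephosphorylating eIF2α, had 466, 448 and 439 normalized counts with ATRA and 712, 1059.7 and 791 in the combination. With Am80 it had 509.7, 503 and 468 against 1688, 1271 and 1223. These were log2 changes of 0.90 ± 0.13 (adjusted p = 1.11e-05, limma) and 1.48 ± 0.13 (adjusted p = 2.04e-08, limma). DDIT3 (CHOP), a stress-induced transcription factor, rose in both steps, from 170.1, 169, 146 and 207 normalized counts in untreated cells to 307, 292 and 297 with ATRA and 511, 665 and 564 in the ATRA combination. With Am80 it had 315, 351 and 289, and 766, 769.7 and 704 in the Am80 combination. The inhibitors added 0.95 ± 0.12 (adjusted p = 1.63e-06, limma) and 1.23 ± 0.12 (adjusted p = 5.86e-08, limma). EIF2AK3, the gene of PERK itself, did not pass (-0.04 and -0.09).

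Of 23 genes of ER to Golgi transport, 16 passed the test as higher on top of ATRA (median log2 fold change 0.37) and 14 on top of Am80 (median 0.28), none as lower, and 1 (TMED7) and 0 were called. ARCN1, a coat subunit of COPI vesicles, rose by 0.53 and 0.50, and KDELR2, the receptor that returns chaperones to the ER, by 0.56 and 0.47. Of 22 other translocon and signal peptide genes, 1 was called in each comparison, TRAM2, a membrane protein of the translocation site. TRAM2 had 811, 784 and 802 normalized counts with ATRA and 1509, 1849.8 and 1779 in the combination (log2 1.09 ± 0.08, adjusted p = 1.53e-09, limma). On top of Am80 its change was 1.30 ± 0.08 (adjusted p = 1.22e-10, limma). Its relative TRAM1 rose by 0.49 with ATRA and had 0.17 with Am80 (adjusted p = 0.062, limma). Of 21 other folding genes, 4 were called higher on top of ATRA, none lower, and 1 higher and 1 lower on top of Am80. TXNDC11, a thioredoxin-like protein, rose by 0.77 and 0.66, and NUCB2, a calcium-binding protein of the secretory pathway, by 0.75 and 0.44. Of 22 other ERAD genes, 1 was called higher with each retinoid, with 2 lower on top of ATRA and 1 on top of Am80. FAF2, which recruits the extraction ATPase, rose by 0.65 with both, and MAN1B1, a mannosidase that marks glycoproteins for degradation, fell by 0.65 and 0.33 on the log2 scale. None of the 19 tested genes of N-glycosylation was called, and 15 and 7 had an unadjusted p under 0.05 (55.1% and 47.5% of all genes). ALG2, a mannosyltransferase, rose by 0.38 and 0.44, and GFPT1, the entry enzyme of the hexosamine pathway, by 0.51 and 0.40.

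**Figure D5:**
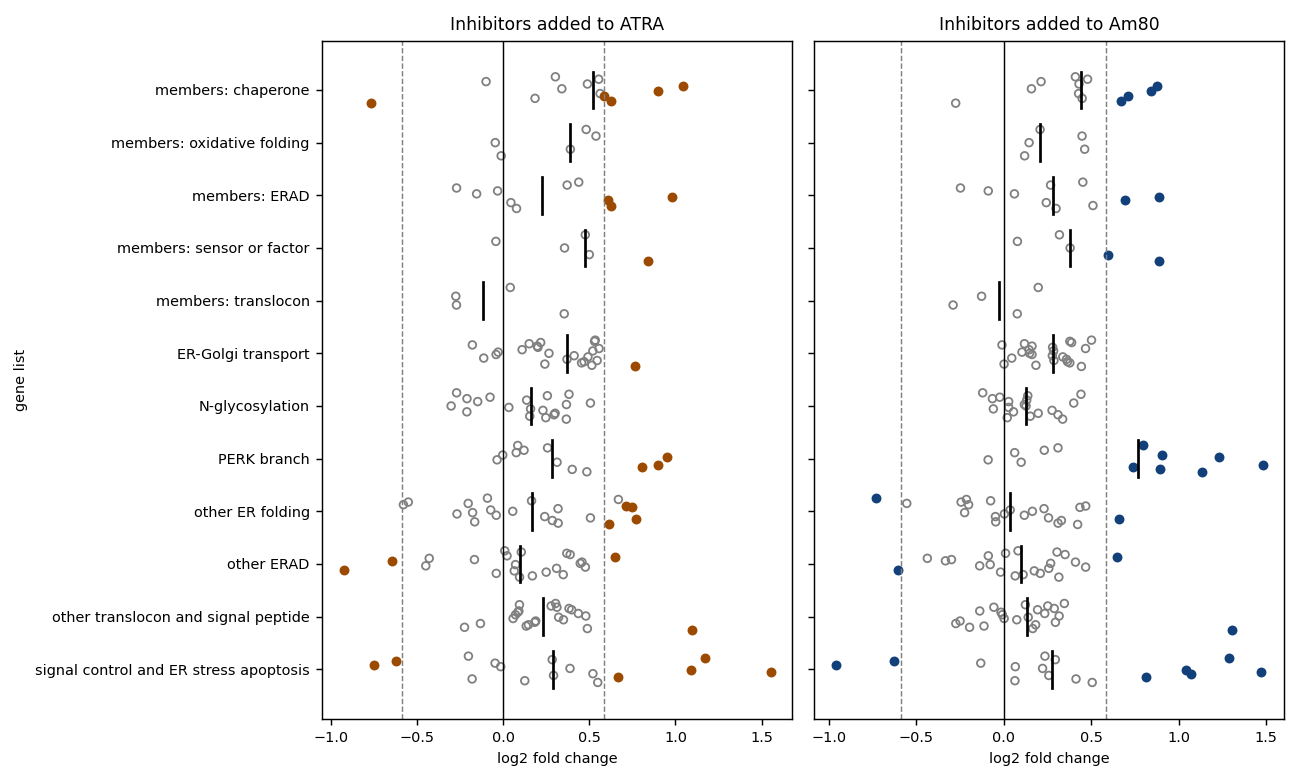
Log2 fold change of each gene on adding GSK-LSD1 and MB3, by list, on top of ATRA (left) and Am80 (right). Filled points are called genes, open points are not called, the short bar is the list's median and dashed lines mark 1.5-fold. The PERK branch reaches the highest median, 0.77 on top of Am80, and the translocon members lie around 0.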

How the data were processed

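RNA-seq of OCI-AML3 cells gave 16 libraries in 5 groups. Per the labels, the authors trimmed, aligned and counted reads with cutadapt, STAR and featureCounts and deposited the signal values, which are counts divided by DESeq2 size factors. Genome build, annotation and strand setting are not given in the sources used here. In each library 100% of values were whole reads within a tolerance of 0.001 after multiplying by 1 factor. Identifiers were matched to GENCODE 29 (GRCh38).

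The analysis used log2(normalized count + 1) and kept rows whose mean reached 10 normalized counts. A limma 3.58.1 trend model (R 4.3.3) with 1 coefficient per group was fitted to all 16 libraries, with Benjamini-Hochberg adjustment over 14643 genes in each comparison and 2-sided tests. Fold changes are on that scale and understate the change of low genes. Calls needed an adjusted p under 0.05 and over 1.5-fold. Alternatives were pseudocounts of 0.5 and 5, no filter, a mean of 50, quantile normalization, scaling to total reads, only the groups compared, edgeR 4.0.16, DESeq2 1.42.0, a replicate block, each library left out, no fold limit, and an adjusted p under 0.01 with 2-fold. On the recovered reads edgeR called 1216 genes higher and 1699 lower on adding the inhibitors to ATRA, and 952 and 1433 to Am80. A GC spline and leaving out 2 libraries together were added after seeing the data. All members were described, with full statistics for the 4 called members of smallest p per main comparison, for HSPA5, HSP90B1, DNAJB9, HERPUD1, XBP1, ERN1 and ATF6, for the 3 of smallest p in each comparison of the retinoids, and for the 2 genes of smallest p in each further list. The members and lists were chosen with earlier results of these data known. The methods were tested on simulated data. Figures used matplotlib 3.10.9 in Python 3.11.15. 1 of the marker genes is not reported here.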

Additional observations from a re-analysis of the deposited data

Results flagged for a closer look

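Among the 36 members in the Untreated group, the one group with 4 libraries, 2 had a library far from the others by Dixon's criterion. CANX had 19610.2 normalized counts in Untreated replicate 4 against 22255 to 22709.8 in the other 3 libraries. SEC61B had 1177 in Untreated replicate 4 against 813 to 833. Chance alone places about 1 in 20 groups past this criterion. Both values lay in the library with the highest GC shift among the untreated ones. Groups of 3 libraries were not tested.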

How the results depend on the processing

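Of 46 calls of a member in a comparison with untreated cells or with the retinoid, 29 were kept in all 28 alternative fits, 17 were lost in at least 1, and none changed direction. Without a fold limit, 8 and 8 members passed with ATRA and Am80 alone, 27 and 23 in the combinations against untreated cells, and 24 and 23 on adding the inhibitors. At an adjusted p under 0.01 and over 2-fold, the counts were 5 and 6 for the combinations against untreated cells, and 1 (DNAJB9) and 0 on adding the inhibitors. The shares of all genes at these limits are not given here, so no background stands beside these counts. Quantile normalization left 5 on top of Am80 (7.42% of all genes higher). Scaling to total reads left 5 on top of ATRA, 4 higher and 1 lower, and 5 on top of Am80 (4.62% and 4.60% of all genes higher). That scaling moved the median of all genes by -0.16 and -0.13, and by -0.15 and -0.19 in the combinations against untreated cells. Removing the GC trend left 5 on top of ATRA. Leaving out 1 library gave 3 calls for each retinoid alone, 11 to 13 and 11 to 12 for the combinations against untreated cells, 6 to 10 on top of ATRA, 7 to 9 on top of Am80 and 0 between the retinoids. The replicate numbers did not pair the libraries (correlations of same-numbered deviations from -0.11 to 0.19, 5 of 16 libraries matching best with their own number). The fit with the replicate block called 11 members in each combination against untreated cells, where SDF2L1 (-0.57) and ERN1 (0.57) fell under the fold limit, and 9 and 8 on adding the inhibitors. Only the Untreated group held a replicate 4. Against untreated cells the block fit therefore gave the same fold changes as leaving out that library, and the 2 fits are not separate checks. Depth limits DERL3 most, at 12 to 44 reads per library.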

Other observations

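Genes of stress signaling and of apoptosis after ER stress, taken as a further list of 16 genes, held 0 genes called higher and 1 called lower with either retinoid alone. On top of ATRA 4 were called higher and 2 lower, and on top of Am80 5 higher and 2 lower, where 8.15% of all genes were called higher and 11.4% lower on top of ATRA, and 6.81% and 8.90% on top of Am80. PMAIP1 (NOXA) and BCL2L11 (BIM), both BH3-only members of the BCL2 family, had log2 fold changes of 1.56 and 1.17 on top of ATRA and 1.47 and 1.29 on top of Am80. NFE2L2, the transcription factor of the antioxidant response, rose by 1.09 and 1.04, and TNFRSF10B, a death receptor for TRAIL, by 0.66 and 0.81. MAP3K5 (ASK1), a stress kinase downstream of IRE1, fell by 0.75 and 0.96 on the log2 scale, and CREB3L4, a relative of CREB3L2, by 0.62 and 0.63. STC2, a secreted glycoprotein, was called lower with the retinoids alone (-1.04 and -1.10) and higher on adding the inhibitors to Am80 (1.07). These genes were singled out after their values were seen.

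Within the PERK branch, TRIB3, a pseudokinase induced by CHOP, went the opposite way to DDIT3 with the retinoids alone, with log2 fold changes of -0.76 with ATRA and -0.73 with Am80. ATF4 mRNA had values between -0.26 and 0.23 in the 6 comparisons with untreated cells or with the retinoid.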
